A study of Mus musculus with 8 samples.

Results

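The genes described here are 34 genes of Kupffer cells and other macrophages, followed in liver RNA of Wrn mutant mice. They were chosen by name, as receptors, complement chains, signalling proteins and lysosomal proteins of these cells, and matched to every array feature that carried their symbol as its only gene symbol. Of the 34 genes, 32 were measured, over 58 features, among 19087 genes in all. Csf1r and Cd68 matched no such feature and were not analysed here. Liver RNA of 9-month-old mice was hybridised on 8 two-colour Agilent arrays. On 4 arrays the sample was a vitamin C treated Wrn mutant, on 4 it was an untreated Wrn mutant, and on each the other channel held wild type (WT) liver RNA. All mice were of the strain C57Bl/6, and the labels state neither the Wrn allele beyond a mutant protein nor the dose and duration of vitamin C. The replicate numbers 1 to 4 run through both groups, and the labels give the same WT number on both arrays of a number. Mutant RNA carried Cy5 on numbers 1 and 2 and Cy3 on numbers 3 and 4.

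Kupffer cells are the resident macrophages of the liver. They line the sinusoids, take up bacteria, dying cells and haemoglobin from the blood, and make most of the complement protein C1q in that organ. Their identity depends on the growth factor receptor CSF1R and on transcription factors that include PU.1, LXR alpha and, where haem is handled, SPI-C. Wrn encodes a DNA helicase of the RecQ family, and vitamin C (ascorbate) is a vitamin that mice make in the liver.

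Values are log ratios as deposited, read as log2 of mutant over WT on every array. The sources used here state neither the log base nor the direction. The series sets mutants against WT, but the direction is not settled. The labels name WT first on numbers 3 and 4, and the mutant first on the other arrays. Read as a ratio, that order would put WT over mutant on numbers 3 and 4. Values of genes near Wrn had been used in choosing the reading of these swapped arrays. The swapped arrays may or may not have been turned before deposit. If they were not, every value below on numbers 3 and 4 changes sign. The table holds ratios with no intensity, so neither the level of a gene nor the tissue's markers could be checked from it. In bulk liver RNA, fewer macrophages and less RNA per macrophage cannot be told apart. Precision is limited by the number of arrays, 4 per group.

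The ratios of the macrophage genes followed the replicate number in both groups. Their median was 1.12, 0.66, -1.51 and 1.78 on numbers 1 to 4 of the vitamin C treated mutants, against 1.02, 0.55, -1.34 and 0.34 on numbers 1 to 4 of the untreated mutants. Numbers 1 and 2 were thus above 0 in both groups, number 3 was below 0 in both, and number 4 was above 0 in both, further in the treated mutant, with 32 of 32 genes above 0, than in the untreated one, with 27 of 32. The median over all genes lay between -0.01 and 0.01 on every array. Both arrays of number 3 lay below the other 6 arrays for 29 of the 32 genes, against 7.46% of all genes. The same was true of number 1 for 1 gene, against 6.25%, and of numbers 2 and 4 for 0 genes, against 5.79% and 5.13%. The treated array of number 4 was the highest of 8 for 23 of the 32, against 14.4% of all genes.

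**Figure D1:**
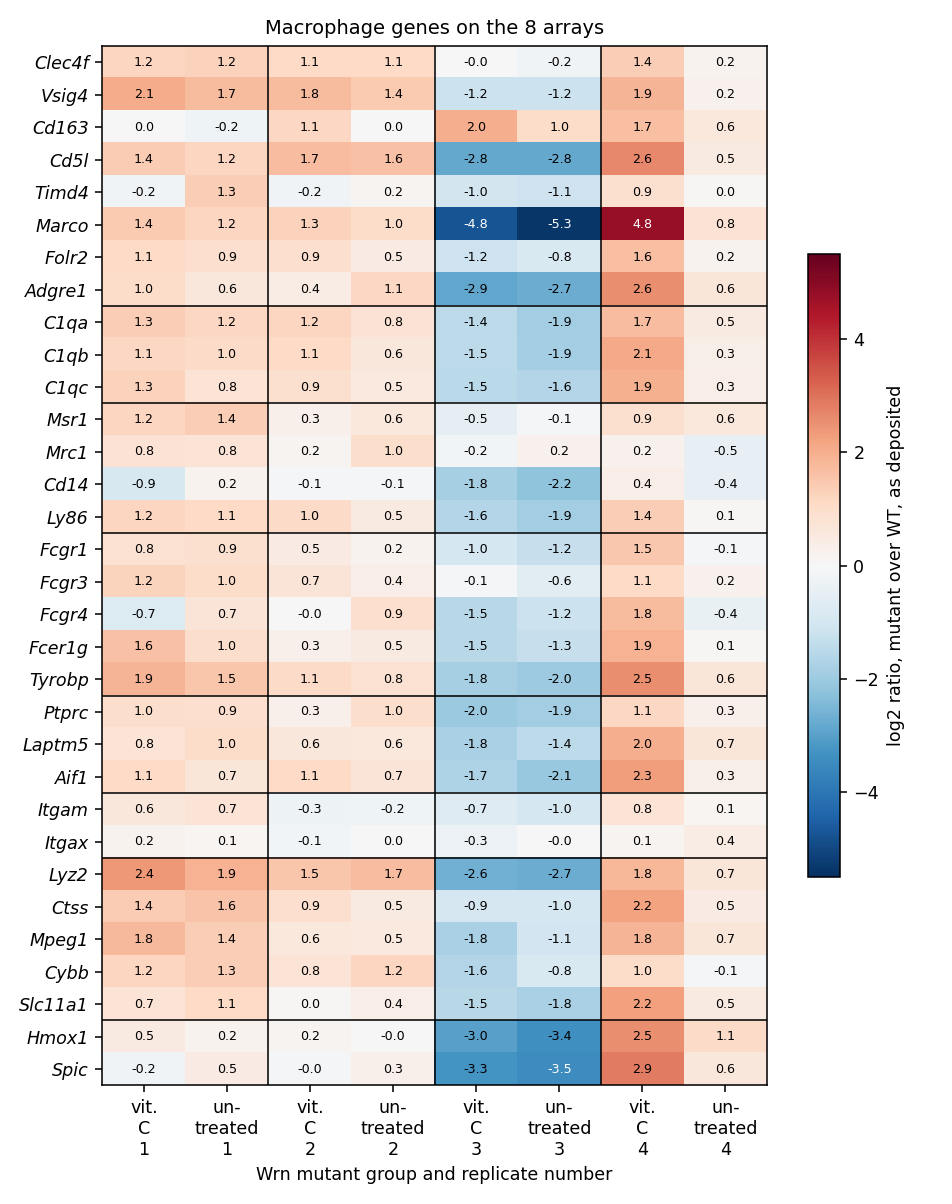
Log2 ratios (mutant over WT, as deposited) of the 32 measured macrophage genes, in rows by role, on the 8 arrays, in columns by replicate number with the vitamin C treated mutant left of the untreated one. Both columns of number 3 are blue for nearly every gene, with Cd163 as the red exception at 1.98 and 1.00, and the treated column of number 4 holds no value below 0.

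Among the receptors that mark Kupffer cells and resident macrophages, Marco spread the most. Marco, a scavenger receptor for bacteria, stood at 1.44, 1.28, -4.75 and 4.79 on numbers 1 to 4 of the treated mutants, against 1.17, 1.00, -5.35 and 0.77 in the untreated mutants. The number 3 arrays were far below all others, a mean ratio 33.1-fold below WT, and the groups overlapped. Cd5l, a secreted scavenger protein induced by LXR, stood at 1.39, 1.69, -2.83 and 2.62 in treated mutants, against 1.18, 1.62, -2.84 and 0.50 in untreated mutants. Adgre1, an adhesion receptor that marks mouse macrophages, stood at 1.02, 0.42, -2.85 and 2.56 in treated mutants, against 0.64, 1.13, -2.72 and 0.65 in untreated mutants. Like Marco, both genes were low on number 3 in both groups and highest on treated number 4, and their groups overlapped.

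Vsig4, a complement receptor that captures opsonised bacteria, stood at 2.05, 1.76, -1.18 and 1.88 in treated mutants, against 1.72, 1.43, -1.17 and 0.24 in untreated mutants. Folr2, a folate receptor of resident macrophages, stood at 1.11, 0.92, -1.15 and 1.63 in treated mutants, against 0.91, 0.46, -0.84 and 0.20 in untreated mutants. Clec4f, a lectin that in mice marks Kupffer cells, stood at 1.19, 1.10, -0.03 and 1.36 in treated mutants, against 1.25, 1.10, -0.20 and 0.19 in untreated mutants. Of these 3 genes Clec4f had the mildest number 3 values, close to WT, and in all 3 the groups overlapped. Timd4, a receptor for phosphatidylserine on dying cells, stood at -0.19, -0.20, -1.004 and 0.87 in treated mutants, against 1.35, 0.16, -1.14 and 0.04 in untreated mutants. The untreated array of number 1 was its highest, the treated one lay below 0, and the groups overlapped.

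Cd163 went another way. This receptor for haemoglobin bound to haptoglobin stood at 0.01, 1.14, 1.98 and 1.67 in treated mutants, against -0.24, 0.01, 1.00 and 0.59 in untreated mutants. In each group it was highest on number 3, where 29 of the other 31 genes had their lowest values, and within each number the treated array was above the untreated one. Across numbers the groups still overlapped, because treated number 1 lay near 0.

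The 3 chains of C1q, which starts the classical complement pathway, ran in parallel. C1qa stood at 1.35, 1.20, -1.43 and 1.69 in treated mutants, against 1.15, 0.80, -1.90 and 0.48 in untreated mutants. C1qb stood at 1.13, 1.09, -1.45 and 2.09 in treated mutants, against 1.03, 0.62, -1.87 and 0.33 in untreated mutants. C1qc stood at 1.28, 0.88, -1.49 and 1.95 in treated mutants, against 0.77, 0.53, -1.61 and 0.35 in untreated mutants. In each chain and each number the treated array was the higher, by a small step on numbers 1 to 3 and a large one on number 4, and the groups overlapped through number 3.

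**Figure D2:**
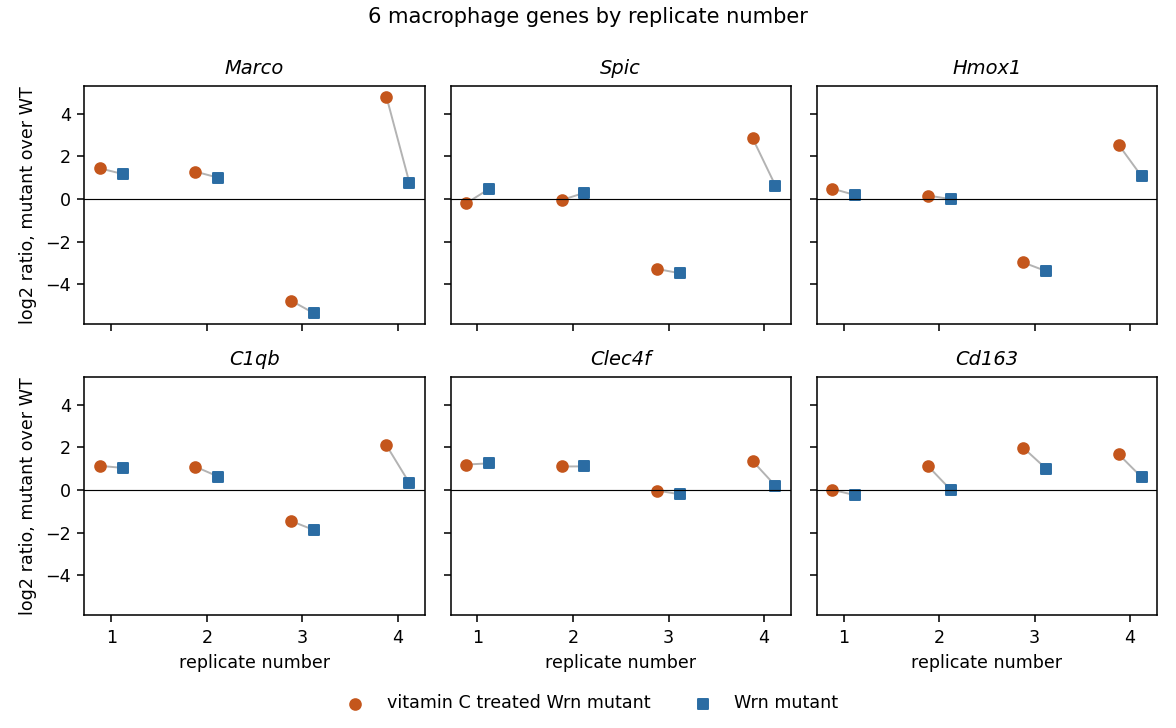
Log2 ratio (mutant over WT, as deposited) of 6 macrophage genes against replicate number, with vitamin C treated mutants as circles, untreated mutants as squares and a line joining the arrays of a number. Marco reaches -5.35 on number 3 and 4.79 on treated number 4, Clec4f stays within -0.20 and 1.36, and Cd163 is highest on number 3.

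The scavenger and pattern recognition receptors were less uniform. Msr1, scavenger receptor A, stood at 1.20, 0.27, -0.53 and 0.90 in treated mutants, against 1.36, 0.56, -0.07 and 0.59 in untreated mutants. Mrc1, the mannose receptor, which sinusoidal endothelial cells also express, stood at 0.80, 0.16, -0.15 and 0.22 in treated mutants, against 0.76, 0.96, 0.22 and -0.46 in untreated mutants. Number 1 was above 0 for both genes in both groups, the groups overlapped, and the low values of number 3 were mild or absent. Cd14, the coreceptor for bacterial lipopolysaccharide, was below 0 on 6 of 8 arrays, with the lowest at -2.23 on untreated number 3. Ly86, the partner of the Toll-like receptor homologue CD180, ranged between -1.92 on untreated number 3 and 1.36 on treated number 4.

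Fc receptors bind antibody-coated particles and signal through adaptors with ITAM motifs. Tyrobp, the adaptor DAP12, stood at 1.88, 1.05, -1.82 and 2.54 in treated mutants, against 1.53, 0.83, -1.99 and 0.65 in untreated mutants. Fcgr3, a low-affinity IgG receptor, stood at 1.21, 0.71, -0.08 and 1.11 in treated mutants, against 1.01, 0.37, -0.57 and 0.22 in untreated mutants. Both were higher in the treated mutant within every number, with overlapping groups. Fcer1g, the common gamma chain, had its lowest value of -1.50 on treated number 3 and its highest of 1.93 on treated number 4. The high-affinity receptor Fcgr1 lay between -1.25 and 1.47. Fcgr4, another IgG receptor, lay between -1.51 and 1.75, both ends on treated arrays.

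Of the genes for leukocyte signalling, Aif1, the cytoskeletal protein Iba1, stood at 1.09, 1.07, -1.70 and 2.32 in treated mutants, against 0.69, 0.69, -2.08 and 0.31 in untreated mutants. Laptm5, a lysosomal membrane protein of blood cells, stood at 0.75, 0.61, -1.79 and 2.00 in treated mutants, against 1.03, 0.59, -1.43 and 0.68 in untreated mutants. Both were low on number 3 and highest on treated number 4, and both had overlapping groups. Ptprc, the pan-leukocyte phosphatase CD45, lay between -2.03 and 1.15 as the mean of 13 features. Single features lay between -3.78 and 2.39, and they shared a sign on 2 of 8 arrays.

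The integrin alpha chains had small ratios. Itgam, CD11b, stood at 0.62, -0.28, -0.70 and 0.75 in treated mutants, against 0.74, -0.25, -0.96 and 0.13 in untreated mutants. Itgax, CD11c, a chain also carried by dendritic cells, stood at 0.20, -0.15, -0.34 and 0.15 in treated mutants, against 0.12, 0.03, -0.03 and 0.42 in untreated mutants. Itgam was low on number 3, Itgax stayed near 0 on all arrays, and the groups overlapped for both.

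The lysosomal and killing proteins were again low on number 3. Ctss, a protease that trims MHC class II invariant chain, stood at 1.39, 0.93, -0.93 and 2.21 in treated mutants, against 1.59, 0.48, -0.98 and 0.45 in untreated mutants. Mpeg1, the pore-forming perforin-2, stood at 1.77, 0.60, -1.77 and 1.85 in treated mutants, against 1.35, 0.53, -1.06 and 0.68 in untreated mutants. For both, number 3 was the only number below 0, and the groups overlapped. Lyz2, lysozyme of myeloid cells, lay between -2.75 and 2.39. Cybb, the catalytic chain of the phagocyte NADPH oxidase, lay between -1.62 and 1.35, and Slc11a1, a metal transporter of phagosomes, lay between -1.77 and 2.24.

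The genes of haem handling were, like Marco, far below 0 on number 3. Hmox1, the haem-degrading haem oxygenase 1, stood at 0.49, 0.16, -2.97 and 2.54 in treated mutants, against 0.19, -0.00, -3.38 and 1.06 in untreated mutants. Spic, which encodes the haem-induced transcription factor SPI-C, stood at -0.21, -0.05, -3.27 and 2.85 in treated mutants, against 0.47, 0.29, -3.48 and 0.62 in untreated mutants. Both stayed near WT on numbers 1 and 2, where Marco and the C1q chains were above it, and the groups overlapped.

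The 250 bases before the start of the 4 genes with the widest range of values among those in the RefSeq promoter table, and of Cd163, which ran against them, are shown to let their start regions be compared. These genes were picked after their values were seen. The sequences are from RefSeq on build GRCm38.p6 and are written 5′ to 3′ on the strand of the gene, with the core GAGGAA of the macrophage factor PU.1, or its complement TTCCTC, in capitals. The windows are chr1:120505025-120505274 on the minus strand for Marco, chr10:88683024-88683273 on the minus strand for Spic, chr3:87357631-87357880 on the plus strand for Cd5l, chr10:117282273-117282522 on the minus strand for Lyz2 and chr6:124304401-124304650 on the plus strand for Cd163.
Marco: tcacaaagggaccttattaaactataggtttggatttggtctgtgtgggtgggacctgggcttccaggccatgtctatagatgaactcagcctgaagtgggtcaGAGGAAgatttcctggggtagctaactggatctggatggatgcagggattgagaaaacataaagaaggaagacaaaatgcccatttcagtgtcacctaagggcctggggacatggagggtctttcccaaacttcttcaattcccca
Spic: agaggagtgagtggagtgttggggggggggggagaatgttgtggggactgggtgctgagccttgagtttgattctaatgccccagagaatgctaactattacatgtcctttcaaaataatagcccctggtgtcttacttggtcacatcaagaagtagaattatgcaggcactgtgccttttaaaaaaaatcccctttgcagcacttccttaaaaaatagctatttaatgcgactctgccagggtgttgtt
Cd5l: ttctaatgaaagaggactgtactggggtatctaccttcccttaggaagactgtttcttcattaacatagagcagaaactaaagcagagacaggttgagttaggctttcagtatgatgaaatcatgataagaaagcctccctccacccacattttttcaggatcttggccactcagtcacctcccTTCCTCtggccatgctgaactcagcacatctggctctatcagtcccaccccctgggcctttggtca
Lyz2: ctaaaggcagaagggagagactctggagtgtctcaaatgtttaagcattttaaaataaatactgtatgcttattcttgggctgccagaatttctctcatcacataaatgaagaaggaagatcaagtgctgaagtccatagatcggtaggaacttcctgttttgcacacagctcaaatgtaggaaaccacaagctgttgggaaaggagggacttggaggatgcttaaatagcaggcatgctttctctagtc
Cd163: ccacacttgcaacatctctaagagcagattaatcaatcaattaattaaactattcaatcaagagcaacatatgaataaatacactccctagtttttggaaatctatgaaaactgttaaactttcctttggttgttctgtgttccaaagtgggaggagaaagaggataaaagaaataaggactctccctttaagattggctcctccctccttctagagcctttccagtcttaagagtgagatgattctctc
The core begins 146 bases before the start of Marco and 66 bases before that of Cd5l, and these letters are not in the windows of Spic, Lyz2 and Cd163. Of the 32 measured genes 26 were in the table, and 15 of the 26 (57.7%) held the core on either strand, against 25.9% of 27025 genes. The E-box CACGTG, its own complement, was in 0 of 26, against 6.86% of genes. TGAGTCA, the AP-1 site, or its complement TGACTCA was in 2 of 26 (7.69%), against 5.16% of genes. A match describes letters and says nothing about binding in these livers.

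Whether the macrophage genes differed between replicate numbers was tested with an F test of number beside group in limma, a test chosen after the data were seen. It called 23 of the 32 genes at an adjusted p under 0.05 over all genes, against 2.99% of all genes. Lyz2 and Hmox1 had the smallest adjusted p (0.00744 each), and Marco had 0.0116. Clec4f, Timd4, Folr2, Mrc1, Cd14, Fcgr1, Fcgr4, Fcer1g and Itgax were the 9 that did not pass. Without both arrays of number 3 the term called 118 of all genes and 0 of the 32, with a smallest adjusted p among them of 0.124 and 5 at an unadjusted p under 0.05. Without number 1, 2 or 4 it called 16, 21 and 28 of the 32, against 222, 422 and 514 of all genes. If the swapped arrays had not been turned before deposit, it would call 16 of the 32, against 190 of all genes. The term as a whole does not separate number from the dye, which was Cy5 on numbers 1 and 2 and Cy3 on numbers 3 and 4. Differences between numbers 1 and 2, or between 3 and 4, lie within a dye. The mutant animals and, per the labels, the WT RNA of a number cannot be told apart in this term. Both arrays of a number carry the same WT number, so they may not be independent replicates. If they held the same WT RNA, its variation is not in the residual spread of this test. The dye coefficient alone called 0 of the 32 genes, against 1.94% of all genes, and 7 at an unadjusted p under 0.05, against 15.6%.

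The first group comparison set vitamin C treated mutants against WT. Of the 32 genes, 27 had a mean above 0, against 51.1% of all genes, and their median was 0.54, against 0.00 over all genes. None passed at an adjusted p under 0.05 in limma, where 0% of all genes did. With no adjustment, p was under 0.05 for 4 genes, all above 0, against 3.73% of all genes on that side, and 0 below 0, against 3.37%. Cd163 had a mean of 1.20 ± 0.17, a ratio of 2.30-fold, with an adjusted p of 0.363 in limma. Here and below, ± gives limma's moderated SE. Its spread is estimated over all 8 arrays after the dye term, so it is not the SE of 4 arrays. The SD of Cd163 over the 4 treated arrays was 0.87. Clec4f had 0.90 ± 0.20 and Fcgr3 0.74 ± 0.21, each with an adjusted p of 0.610, and Vsig4 had 1.13 ± 0.41 with 0.681. The median SE of the macrophage genes was 0.47, against 0.12 over all genes. Without the treated array of number 4 the median was -0.15, in a fit whose dye coefficient leaves number 3 as the only treated Cy3 array, and 0.15 with no dye coefficient. Without the treated array of number 3 these medians were 1.09 and 1.16. Without both arrays of number 4, number 3 and the Cy3 dye cannot be told apart. That fit gave Marco -1.72 (adjusted p = 0.00573), Hmox1 -1.34 (0.0170) and Spic -1.76 (0.0116) in limma, with 0.0419% of all genes called. With no dye coefficient it called 0 of the 32, and Marco and Hmox1, each above WT on 2 of 3 treated arrays, had means of -0.68 and -0.77.

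The second comparison set untreated mutants against WT. Of the 32 genes, 22 had a mean above 0, against 46.7% of all genes, and their median was 0.11, against -0.01 over all genes. None passed at an adjusted p under 0.05 in limma, where 0% of all genes did. With no adjustment, p was under 0.05 for 3 genes, all above 0, against 3.14% of all genes on that side, and 0 below 0, against 4.65%. These were Clec4f at 0.59 ± 0.20, Msr1 at 0.61 ± 0.25 and Mrc1 at 0.37 ± 0.16 (limma SE), with adjusted p-values of 0.577, 0.613 and 0.629. Msr1 lies 25 measured genes away from Wrn on chromosome 8 in RefSeq gene order, and Hmox1 lies 246 away. Values of genes near Wrn, Msr1 among them, had been used in choosing the reading of the swapped arrays. The ratio and p of Msr1, and its place among the 3, are thus no independent result. Without the untreated array of number 4 the median was -0.20, again with number 3 as the only untreated Cy3 array, and 0.05 with no dye coefficient. Without the untreated array of number 3 these medians were 0.52 and 0.60. The fit without both arrays of number 4, under the limit given above, had Marco at -2.10 (adjusted p = 0.00237), Hmox1 at -1.63 (0.0111) and Spic at -1.49 (0.0211) in limma, with 0.0786% of all genes called, and with no dye coefficient it called 0 of the 32. If the swapped arrays had not been turned before deposit, the medians over WT would be 0.33 in treated and 0.67 in untreated mutants. Both comparisons share the WT number of each pair of arrays.

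**Figure D3:**
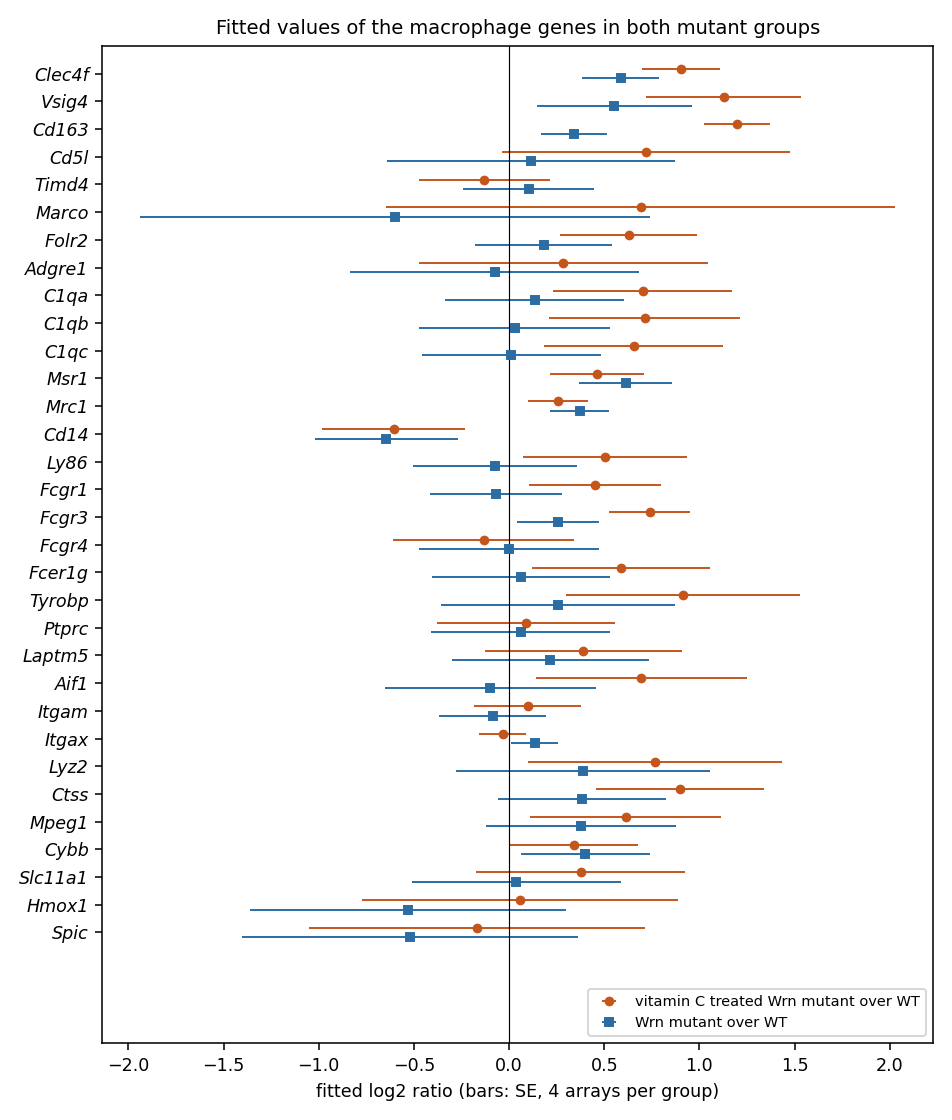
Fitted log2 ratios over WT of the 32 macrophage genes with SE bars (4 arrays per group), vitamin C treated mutants as circles above untreated mutants as squares. The treated values run between -0.61 for Cd14 and 1.20 for Cd163, the untreated ones between -0.65 for Cd14 and 0.61 for Msr1.

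The third comparison set vitamin C treated mutants against untreated mutants. The treated mean was the higher for 26 of the 32 genes, against 53.7% of all genes, with a median difference of 0.41, against 0.02 over all genes. None passed at an adjusted p under 0.05 in limma, where 0% of all genes did, and the smallest adjusted p was 0.974. Cd163, at 0.86 ± 0.24 (limma SE), a ratio of 1.81-fold, was the only one of the 32 at an unadjusted p under 0.05 on the higher side, against 2.37% of all genes. On the lower side 0 of the 32 were at that p, against 1.91%. A separate limma fit held the replicate number as a fixed block in place of the dye coefficient, which takes differences between numbers out of the spread. In it 9 genes were at an unadjusted p under 0.05, all higher in treated mutants, against 3.85% of all genes on that side and 2.63% on the lower. None passed after adjustment (smallest adjusted p among the 32 = 0.757). The 9 genes were Aif1, C1qa, C1qb, C1qc, Cd163, Fcgr3, Hmox1, Ly86 and Tyrobp. For 0 of the 32 genes did all 4 treated arrays lie above all 4 untreated ones, against 1.21% of all genes, and for 0 did they all lie below, against 1.04%.

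Within numbers, a difference chosen after the data were seen, the median of treated minus untreated was 0.10, 0.05, 0.13 and 1.38 on numbers 1 to 4. The treated array was the higher for 20, 18, 20 and 31 of the 32 genes on numbers 1 to 4, against 52%, 50.7%, 51.7% and 53.7% of all genes. The size of the group difference thus came mostly with number 4, where Itgax, at -0.27, was the only gene below 0 and Marco had the largest difference, 4.02. Without both arrays of number 4 the median difference was 0.09. Without the treated array of number 4 alone it was -0.27, or -0.03 with no dye coefficient, and without the untreated array of number 3 alone it was -0.10 or -0.19. The treated array was the higher in all 4 numbers for 11 genes, against 9.17% of all genes. These were Cd163, Cd5l, Marco, C1qa, C1qb, C1qc, Ly86, Fcgr3, Tyrobp, Aif1 and Hmox1. Cd163 had differences of 0.25, 1.12, 0.98 and 1.08 on numbers 1 to 4, so that its difference did not rest on number 4 alone. If the swapped arrays had not been turned before deposit, the median difference would be -0.33 and that of Cd163 -0.17.

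**Figure D4:**
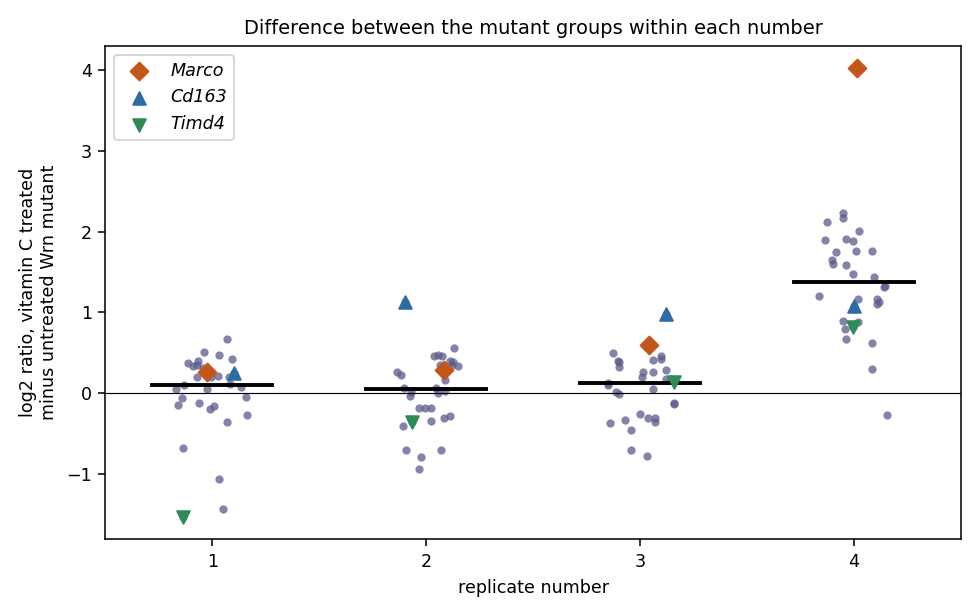
Difference in log2 ratio between the vitamin C treated and the untreated mutant of the same replicate number, one point per macrophage gene (32), with the median as a bar. The medians are 0.10, 0.05 and 0.13 on numbers 1 to 3 and 1.38 on number 4, where Marco is at 4.02, while Cd163 is near 1 on numbers 2 to 4.

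Other genes of the macrophage programme shared the order across numbers in part, and none passed in any group comparison. Of 19 other genes of Kupffer cells and resident macrophages, 9 differed between numbers, against 2.99% of all genes. Sirpa, an inhibitory receptor for CD47, stood at 1.00, 0.89, -2.81 and 2.45 in treated mutants, against 0.78, 0.87, -2.56 and 0.71 in untreated mutants. Axl, a receptor kinase for dying cells, and Cfp, complement properdin, had adjusted p-values for number of 0.00968 and 0.0116. Of 16 partners of the proteins described, 6 differed, led by the oxidase subunits Ncf4 and Ncf1 and the GTPase Rac2 that activates them. Blvrb, a biliverdin reductase, did not follow number (adjusted p = 0.815). It stood at 0.27, 0.23, 0.51 and 0.50 in treated mutants, against -0.07, -0.07, 0.11 and -0.26 in untreated mutants, so that its groups did not overlap, as for 1.21% of all genes. Its difference was 0.45 ± 0.14 (SE), with an unadjusted p of 0.01 in limma that did not pass after adjustment.

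Of 18 cytokines made by macrophages 6 differed between numbers, against 2.99% of all genes. Il1b, interleukin 1 beta, stood at -0.04, 0.45, -3.17 and 0.02 in treated mutants, against 0.60, 0.15, -2.74 and -0.23 in untreated mutants. Tnf, tumour necrosis factor, stood at 0.12, 0.06, -1.68 and 0.53 in treated mutants, against 0.20, 0.11, -1.63 and 0.28 in untreated mutants. Both cytokines were low on number 3 in both groups. On treated number 4 Il1b was at 0.02 and Tnf at 0.53, its highest value, against a median of 1.78 for the macrophage genes on that array. Of 16 lysosomal genes 2 differed between numbers, Lgmn, legumain, and Ctsb, cathepsin B. Among 12 ligands that act on macrophages, Tgfb1, transforming growth factor beta, and the chemokine Ccl2 differed.

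Markers of other cells were counted in the same way, beside 2.99% of all genes, and their part in the result was not tested. The number term called 0 of 11 monocyte, 1 of 12 neutrophil, 1 of 13 T and NK cell, 2 of 9 B and plasma cell, 1 of 8 dendritic cell, 1 of 12 sinusoidal endothelial and 1 of 10 stellate cell markers. It called 3 of 8 hepatocyte, 1 of 5 bile duct, 3 of 7 red cell and platelet and 0 of 7 cell division genes. The 1 neutrophil gene called, S100a9, a calcium-binding alarmin, stood at -0.39, 0.07, -2.03 and 2.19 in treated mutants, against -0.61, 0.59, -2.85 and 0.53 in untreated mutants. The median of the 12 neutrophil markers did not share this spread. It was -0.02 and 0.20 on numbers 3 and 4 of treated mutants, against -0.19 and 0.15 in untreated mutants. Hba-a1, an alpha globin gene that marks blood in the sample, stood at 0.77, -0.34, -0.95 and 0.57 in treated mutants, against 0.28, -0.89, -1.76 and -0.03 in untreated mutants. The medians of these lists on number 3 were -0.77 in the treated and -1.04 in the untreated mutant for red cell and platelet markers, and between -0.33 and -0.02 in treated and between -0.40 and 0.16 in untreated mutants for the others.

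**Figure D5:**
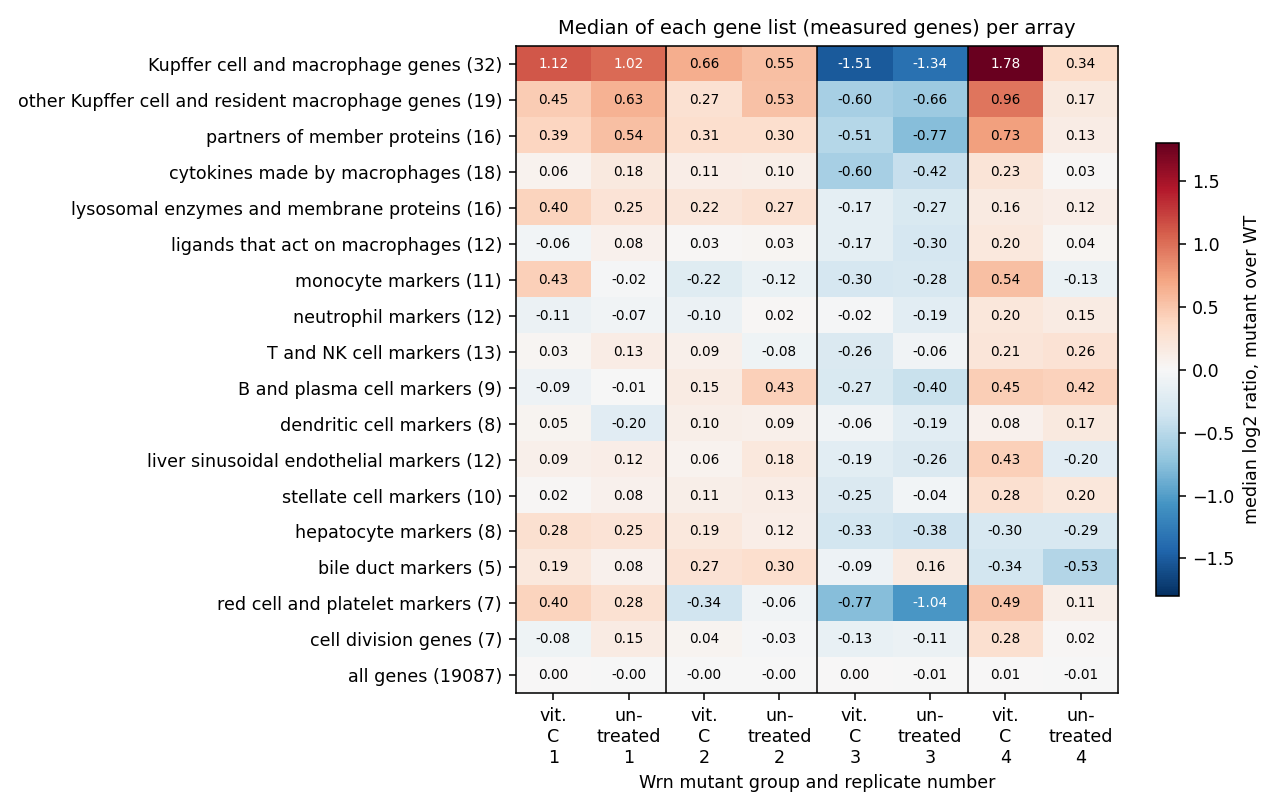
Median log2 ratio (mutant over WT) of the macrophage genes, 16 other gene lists and all genes on each array, the vitamin C treated mutant left of the untreated one within each number, with the measured genes in brackets. The macrophage genes have the widest row, between -1.51 and 1.78, followed by the other Kupffer cell genes between -0.66 and 0.96 and the red cell and platelet markers between -1.04 and 0.49.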

How the data were processed

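The authors deposited log ratios, read here as log2 values, for 45220 features on 8 arrays, and limma is named, without role or version, per the submitters' processing notes. The sources used here do not say how background was corrected, how arrays were normalized, or which base and direction the ratios have. A total of 33653 features had a single symbol in GEO's platform annotation and were averaged into 19087 genes. Groups were compared in limma 3.58.1 (R 4.3.3, lmFit and eBayes) with 1 coefficient for each group and another for the dye, fitted to the 8 arrays together, which left 5 residual degrees of freedom, and Benjamini-Hochberg adjusted p under 0.05 was called. On simulated data of 19087 genes the fit for treated mutants over WT called 87 of 100 genes changed by 1 on the log2 scale, that for treated over untreated mutants 57 and the number term 0. For genes changed by 2 these were 100, 89 and 42 of 100. The changed genes were picked at random, with independent noise at each gene's residual spread around group and dye. These shares do not carry over to the macrophage genes, whose median SE for treated over untreated mutants was 0.66, against 0.17 over all genes. That spread also held any difference between numbers, which can lower the share of the number term. The members, lists, tests and the reading of the swapped arrays were chosen with earlier results of these data known, and values of genes near Wrn, Msr1 among them, had been used in choosing that reading. Values on every array are given for all receptors of resident macrophages and C1q chains and, in each other role, for the 2 genes of smallest unadjusted p in any comparison. Of other lists, up to 3 genes of smallest p were open to naming. Replicate numbers were taken to pair the arrays, since both arrays of a number carry the same WT number in the labels. Deviations from group means correlated between arrays of the same number at 0.381, 0.324, 0.514 and 0.341 for numbers 1 to 4, and at 0.00294, 0.0319, 0.243 and 0.203 after the dye effect was removed. The labels call the replicates independent biological ones.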

Additional observations from a re-analysis of the deposited data

Results flagged for a closer look

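Dixon's test looked for an array far from the other 3, over the 32 genes and their median in both groups of 4 arrays. It marked an array in 8 of 66 tests, and all 8 lay on number 3. A single test marks about 1 in 20 by chance. These genes moved together on number 3, so the 8 are not separate events, and the share over all genes was not computed. On the vitamin C treated array of number 3, Vsig4 was at -1.18, against 1.76 to 2.05 on the other 3 treated arrays. C1qa was at -1.43 there, against 1.20 to 1.69, Ly86 at -1.60, against 1.05 to 1.36, and Cybb at -1.62, against 0.76 to 1.20. On the untreated array of number 3, Marco was at -5.35, against 0.77 to 1.17 on the other 3 untreated arrays. Adgre1 was at -2.72 there, against 0.64 to 1.13, Aif1 at -2.08, against 0.31 to 0.69, and Spic at -3.48, against 0.29 to 0.62.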

How the results depend on the processing

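The cause of a change is given only where the fit's construction shows it, and otherwise was not tested. With the sign of the swapped arrays turned, 10 genes passed for treated mutants over WT and 9 for untreated mutants over WT, none of them among the 32 macrophage genes, and the macrophage median was 0.33, 0.67 and -0.33 for treated over WT, untreated over WT and treated over untreated mutants. Under that reading 26 of the 32 fitted differences between treated and untreated mutants changed sign, as did 4 of the ratios of treated mutants and 12 of those of untreated mutants to WT. None of these had passed, so they count as moved and not as reversed calls. Leaving out arrays, the genes called lay between 0 and 8 for treated mutants over WT and between 0 and 15 for untreated mutants over WT, and the macrophage genes called between 0 and 3 in each. In treated mutants over WT, Hmox1 at -1.34 and Marco at -1.72 passed with the opposite sign without number 4, where number 3 is the only Cy3 number, and leaving out number 3 gave 1.33 and 2.77. With no dye coefficient, an alternative added after the data were seen, each fit with arrays left out called 0 macrophage genes and 0 or 1 of all genes in each comparison. Leaving out arrays with the dye coefficient kept, the macrophage median for treated over untreated mutants lay between -0.27, without treated number 4, and 0.97, without treated number 3. With no dye coefficient it lay between -0.19, without untreated number 3, and 1.03, without treated number 3. Within number 4 alone it was 1.38. The number term, added after the data were seen, called 190 genes, 16 of the 32 macrophage genes among them, with swapped arrays turned. With features tested singly it called 1183 of 33653 features and 41 of 58 macrophage features. Leaving out a number, it called between 118 and 514 genes and between 0 and 28 macrophage genes. In the comparisons over WT the replicate block was a correlation between arrays of a number, with the dye coefficient kept. Between treated and untreated mutants it was a fixed term, with no dye coefficient. The block left every group comparison at 0 called genes. Genes at an unadjusted p under 0.05 in limma between treated and untreated mutants were 1236 with it, against 817 without it. The other settings (no dye coefficient, median feature, scaled arrays, array weights) called 0 macrophage genes in the 3 group comparisons. Scaling used the median absolute log ratio, since the planned function gives no value on centred log ratios. Without intensities, dim features could not be told apart, which limits the small ratios.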
